A study of Mus musculus with 8 samples.

Results

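The 7 genes of the Fos and Jun families encode the subunits of the AP-1 transcription factor. They were taken by symbol from the deposited gene tables, where Fos, Fosb, Fosl1, Fosl2, Jun, Junb and Jund are 7 of 17983 symbols. Brain RNA from male db/db mice was sequenced in 8 libraries, of which 4 come from mice given a ketogenic diet (very low in carbohydrate and rich in fat) and 4, called control, from mice given a normal diet. Both groups carry the db/db genotype, a leptin receptor mutation that gives obesity and diabetes, and no lean group enters the comparison. Feeding began when the mice were 9 weeks old and ended at 6 months, and whole brains were taken, so cell types and regions are mixed in each library. In such bulk samples, fewer cells of a type and less RNA per cell cannot be told apart. The labels do not tie a library to an animal, so p-values measure the spread between these samples. Counts per library summed to 38163795 to 40233361 in ketogenic and to 34450860 to 38738800 in control libraries. On the first principal component of all tested genes (22.9% of the variance) ketogenic replicate 3 stood apart at -34.4, against -11.2 to -2.90 for the other ketogenic libraries and 5.94 to 22.7 for control libraries. Without it, 4 of the 5 calls reported here for Fos and Jun family genes held, all but that of Jun. In that fit 4.75% of all tested genes were called, against 6.52% with all libraries.

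AP-1 is a dimer. Proteins of both families hold a basic region that contacts DNA and a leucine zipper that joins the partners. Fos proteins need a Jun partner, whereas Jun proteins can also pair with each other. In neurons Fos, Fosb and Junb are immediate early genes, transcribed within minutes of synaptic activity through calcium and kinase signals that act on factors already bound at their promoters. Jund is the steadily expressed member in most tissues, and Fos and Jun are also induced by cell stress.

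The promoters of the 4 genes with a match to a searched motif are shown first. They are the 250 bases before the RefSeq gene start on GRCm38.p6, written 5′ to 3′ on the gene's strand. Capitals mark TGACG, the core of the cAMP response element TGACGTCA to which Creb1 binds, in Fos, Fosb and Junb. In Jun they mark TGACATCA, an AP-1-like site known from this promoter. Sites other than the searched motifs are not marked.
Fos: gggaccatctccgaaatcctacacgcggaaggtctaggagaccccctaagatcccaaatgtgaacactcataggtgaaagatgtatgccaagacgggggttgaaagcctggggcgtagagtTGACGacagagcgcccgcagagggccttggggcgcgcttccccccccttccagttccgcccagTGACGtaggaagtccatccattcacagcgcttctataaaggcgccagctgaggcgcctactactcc
Fosb: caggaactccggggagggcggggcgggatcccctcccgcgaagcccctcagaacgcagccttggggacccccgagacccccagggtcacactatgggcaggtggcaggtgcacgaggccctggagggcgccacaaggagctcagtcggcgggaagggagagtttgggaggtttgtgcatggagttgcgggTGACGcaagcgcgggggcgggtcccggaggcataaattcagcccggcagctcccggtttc
Junb: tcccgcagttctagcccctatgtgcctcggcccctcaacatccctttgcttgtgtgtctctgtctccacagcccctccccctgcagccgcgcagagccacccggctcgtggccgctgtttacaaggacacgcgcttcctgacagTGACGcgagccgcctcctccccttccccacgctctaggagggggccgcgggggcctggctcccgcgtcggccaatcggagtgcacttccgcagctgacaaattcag
Jun: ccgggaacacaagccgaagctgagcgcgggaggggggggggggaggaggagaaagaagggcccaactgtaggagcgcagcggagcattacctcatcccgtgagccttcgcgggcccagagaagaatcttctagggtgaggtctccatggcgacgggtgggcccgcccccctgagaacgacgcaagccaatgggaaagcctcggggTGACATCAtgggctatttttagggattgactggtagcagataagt
These windows lie at chr12:85473640-85473889 on the plus strand for Fos and at chr7:19310046-19310295, chr8:84978749-84978998 and chr4:95052223-95052472 on the minus strand for Fosb, Junb and Jun. RefSeq windows matched 6 of the 7 members, all but Fosl1. The TGACG core, searched on both strands, was in 3 of these 6 windows and in 17.8% of 32851 windows of this length over all genes. It stood 66 to 62 and 129 to 125 bases before the start of Fos, 60 to 56 before Fosb and 106 to 102 before Junb. TGACATCA stood 45 to 38 bases before Jun and was in 2.93% of all windows. It was added to the search after the other motifs, as a site already known from the Jun promoter. Its match in Jun was therefore given in advance and is not a finding. None of the 6 windows held TGACTCA (the AP-1 site, 4.46% of all windows), the full TGACGTCA (1.55%) or the serum response CArG box (1.47%). RefSeq and GENCODE starts differ for Jund, Fosl2, Junb and Fosb, and the positions above are counted from the RefSeq starts. On the minus strand, the Junb window begins at 84978749, apart from the GENCODE start at 84978718. The Fosb window begins at 19310046, just inside the GENCODE gene, which starts at 19310051. The Jund window (chr8:70697489-70697738) ends well before the GENCODE start at 70698949. The Fosl2 window (chr5:32136222-32136471) lies inside the GENCODE gene, which starts at 32135801. A match is a description of letters, and the lack of one concerns these 250 bases only.

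Of the 7 members, 6 passed the filter on low counts and were tested among 14895 genes. Of these 6, 5 were lower in ketogenic brains (Fos, Fosb, Fosl2, Jun and Junb), 0 were higher, and Jund did not pass, by the quasi-likelihood F test of edgeR, adjusted after Benjamini and Hochberg over all tested genes, at an adjusted p under 0.05. Of all tested genes 6.52% passed in either direction and 3.22% as lower. The members' median log2 change was -0.30, against -0.00287 over all tested genes. For 4 members (Fos, Fosb, Fosl2 and Jun) every ketogenic library lay below every control library, as was the case for 6.51% of tested genes in CPM. The number of members past the threshold was 2 without ketogenic replicate 1, without ketogenic replicate 2 or without control replicate 1. It was 3 without ketogenic replicate 4 or control replicate 2. In that order, 3.91%, 1.31%, 0.971%, 3.58% and 1.36% of all tested genes passed in these settings in either direction. Levels below are FPKM, the authors' values per kilobase of gene and per library total, and changes are log2 of ketogenic over control from the counts.

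**Figure D1:**
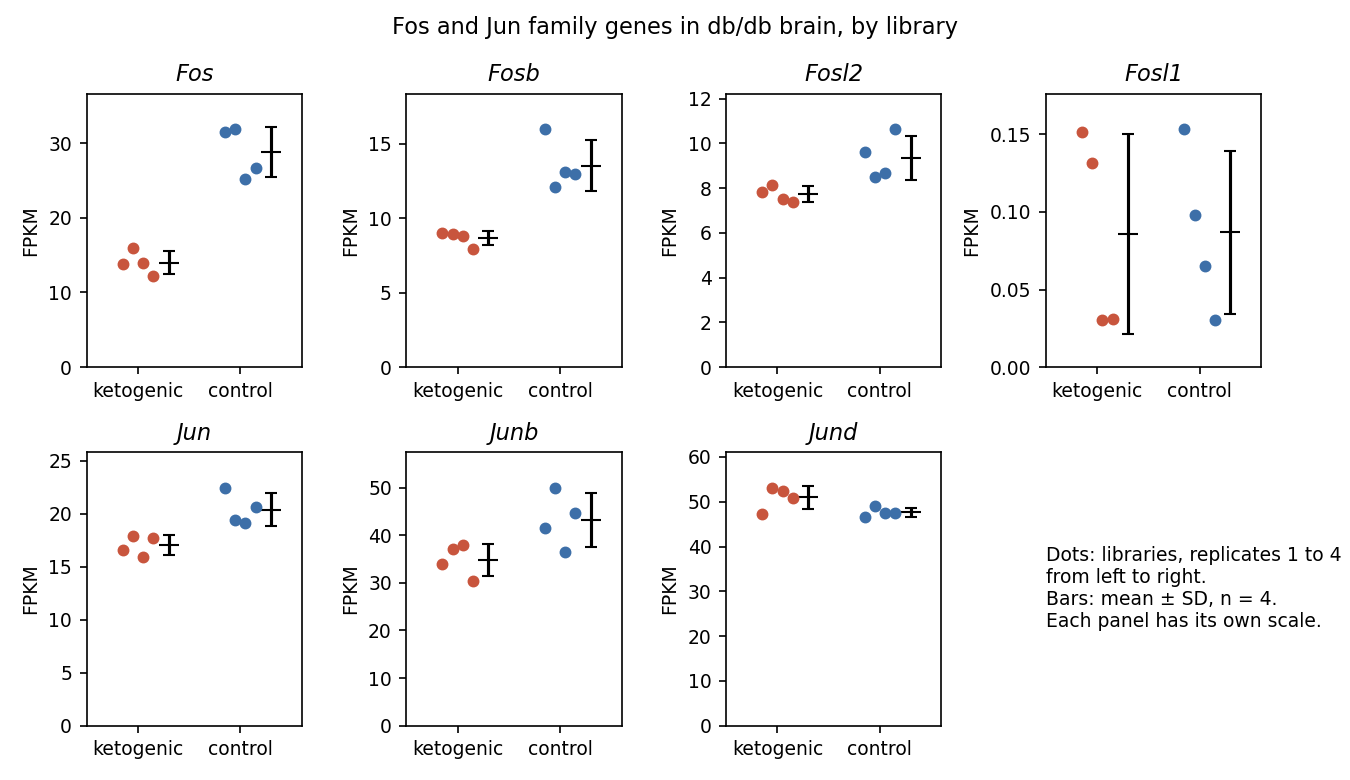
FPKM of each of the 7 genes in the 4 ketogenic libraries (left, red) and the 4 control libraries (right, blue), with mean ± SD beside them; each panel has its own linear axis from 0. The groups are apart for Fos, Fosb, Fosl2 and Jun and overlap for Junb, Jund and Fosl1.

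Fos (c-Fos, chromosome 12, 85473890 to 85477273 on the plus strand of GRCm38 in GENCODE) is the founding member, a strong activator whose RNA is widely used as a mark of recent neuronal activity. It stood at 13.8, 16.0, 14.0 and 12.2 FPKM in ketogenic replicates 1 to 4, against 31.4, 31.9, 25.2 and 26.6 FPKM in control replicates 1 to 4. The highest ketogenic library was well below the lowest control library. Means were 14.0 ± 1.58 FPKM in ketogenic and 28.8 ± 3.37 FPKM in control libraries (SD, n = 4 each). The log2 change was -1.04 ± 0.09 (SE, edgeR adjusted p = 8.34e-05), 2.06-fold lower, with a 95% interval of -1.24 to -0.85. This was the smallest p-value of all 14895 tested genes, on reads of 978 to 1359 per ketogenic library and 1909 to 2407 per control library.

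Fosb (chromosome 7, 19302696 to 19310051, minus strand) encodes FosB and, by splicing, the truncated and long-lived deltaFosB that gathers in neurons under repeated stimulation. Counts are over the whole gene, so the isoforms are not told apart. Fosb stood at 9.01, 8.93, 8.81 and 7.97 FPKM in ketogenic replicates 1 to 4, against 16.0, 12.1, 13.1 and 13.0 FPKM in control replicates 1 to 4. Control replicate 1 was the highest, and the groups did not overlap. Fosb fell by 0.65 ± 0.09 in log2 (SE, edgeR adjusted p = 0.00242), 1.57-fold, with a p-value that ranked 9 among tested genes. The 4 ketogenic libraries lay close together, with a coefficient of variation of 5.52%, against 12.5% in control libraries; over all tested genes the medians were 8.45% in ketogenic and 9.03% in control libraries. Under each of the 22 alternatives, single left-out libraries among them, Fos and Fosb passed.

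Fosl2 (Fra-2, chromosome 5, 32135801 to 32157842, plus strand) lacks the strong activation domain of Fos and FosB and is in many cells induced later and for longer. It stood at 7.84, 8.16, 7.53 and 7.36 FPKM in ketogenic replicates 1 to 4, against 9.61, 8.48, 8.69 and 10.6 FPKM in control replicates 1 to 4. The groups were apart, with ketogenic replicate 2 just under control replicate 2. The log2 change was -0.28 ± 0.07 (SE, edgeR adjusted p = 0.0343). The call was lost without ketogenic replicate 1, 2 or 4 (0.0585, 0.0704 and 0.0736) or control replicate 1 (0.108).

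Fosl1 (Fra-1, chromosome 19, 5447547 to 5455946, plus strand), the other member without a strong activation domain, was near the limit of detection. It had 10, 9, 2 and 2 reads in ketogenic replicates 1 to 4, against 9, 6, 4 and 2 reads in control replicates 1 to 4. The sums were 23 reads in ketogenic libraries (95% exact Poisson interval 14.6 to 34.5) and 21 in control libraries (13.0 to 32.1), intervals that cover counting error only. The filter left the gene out. Fitted without the filter, its log2 change was -0.01 with a 95% interval of -1.85 to 1.84, so a change as large as that of Fos was not detectable at this depth.

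Jun (c-Jun, chromosome 4, 95049034 to 95052222, minus strand) is the strongest activator of its family and the main target of the JNK kinases. It stood at 16.5, 17.9, 15.9 and 17.7 FPKM in ketogenic replicates 1 to 4, against 22.5, 19.4, 19.1 and 20.6 FPKM in control replicates 1 to 4. All ketogenic libraries were below all control libraries, and control replicate 1 was the highest. The log2 change was -0.27 ± 0.07 (SE, edgeR adjusted p = 0.0289), 1.20-fold lower. The call was lost without ketogenic replicate 1, 2 or 3 (0.0629, 0.0641 and 0.0538) or control replicate 1 or 2 (0.0992 and 0.0547).

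Junb (chromosome 8, 84974484 to 84978718, minus strand) is a weaker activator that can oppose Jun at shared sites. It stood at 34.0, 37.1, 37.9 and 30.5 FPKM in ketogenic replicates 1 to 4, against 41.6, 50.0, 36.5 and 44.7 FPKM in control replicates 1 to 4. Ketogenic replicates 2 and 3 exceeded control replicate 3, so the groups overlapped. The log2 change was -0.31 ± 0.09 (SE, edgeR adjusted p = 0.0486), just past the threshold. The call was lost without ketogenic replicate 1, 2 or 4 (0.0989, 0.0945 and 0.110), without control replicate 1, 2 or 4 (0.112, 0.152 and 0.0601), and with limma-voom (0.0534).

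Jund (chromosome 8, 70698949 to 70700616, plus strand) is the member that is least tied to activity. It stood at 47.3, 53.1, 52.4 and 50.9 FPKM in ketogenic replicates 1 to 4, against 46.6, 49.0, 47.4 and 47.4 FPKM in control replicates 1 to 4. Ketogenic replicate 1 lay within the control range and the other 3 ketogenic libraries above it. The log2 change was 0.09 ± 0.05 (SE, edgeR adjusted p = 0.298), with a 95% interval of -0.02 to 0.21. With each library's trend on GC content and gene length removed it was -0.00031 (adjusted p = 0.998). The 5 lower members kept their calls under that removal, with changes of -1.07 for Fos and -0.31 for Jun. Fosl2 passed narrowly there (edgeR adjusted p = 0.0433). In that setting 2.07% of all tested genes passed in either direction, against 6.52% as reported.

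**Figure D2:**
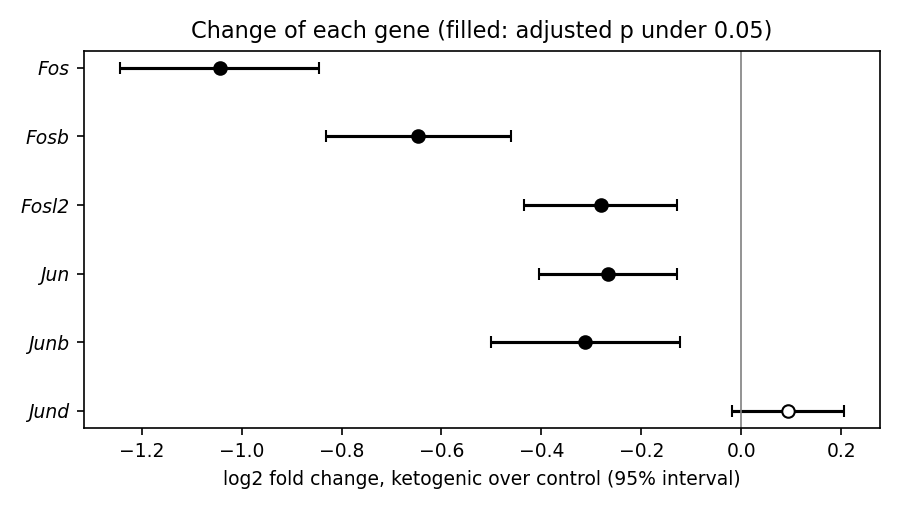
Log2 fold change of ketogenic over control for the 6 tested genes, with 95% intervals from the edgeR fit; filled points passed at an adjusted p under 0.05. Fos lies at -1.04 and Fosb at -0.65, Fosl2, Jun and Junb lie between -0.31 and -0.27, and the interval of Jund spans 0.

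**Figure D3:**
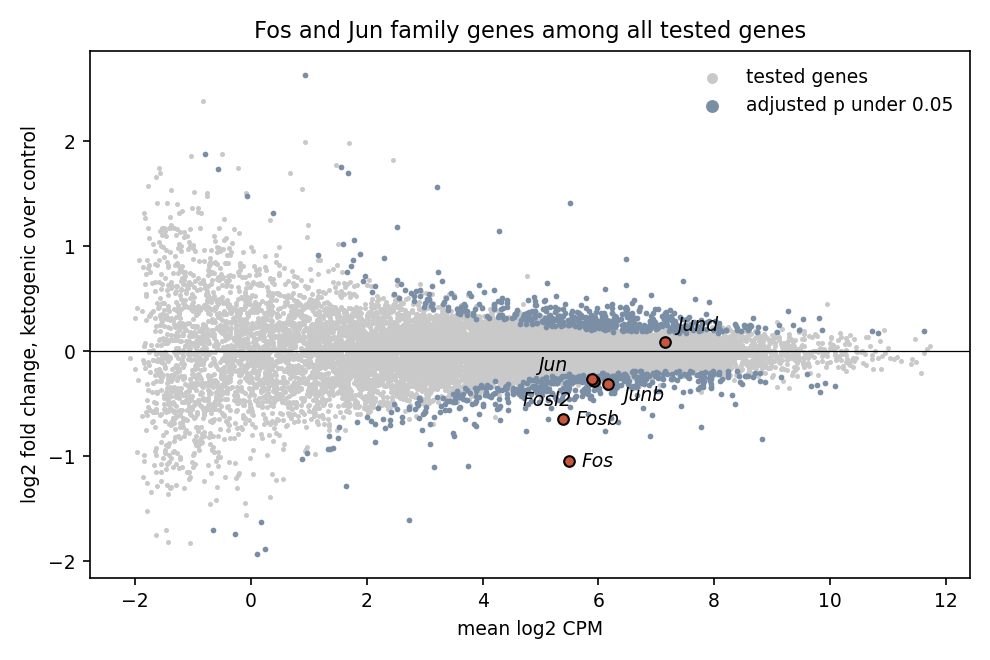
Log2 fold change against mean log2 CPM for all 14895 tested genes (grey), those past the threshold (blue-grey) and the 6 tested Fos and Jun family genes (red, named). Fos and Fosb lie at the lower edge of the cloud for their level, and Jund lies near 0.

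Levels per kilobase gave the members a nearly fixed order within each diet. In control libraries Jund averaged 47.6 ± 1.01 FPKM and Junb 43.2 ± 5.64 FPKM (SD, n = 4), and these neighbours overlapped, with Junb on top in control replicate 2. Jund averaged 50.9 ± 2.61 FPKM and Junb 34.9 ± 3.36 FPKM in ketogenic libraries, and Jund was on top in all 4. Jund and Junb were above 91.5% and 89.1% of tested genes in FPKM, and Fosl2 was above 58.7%. The order of members depends on the fixed lengths behind the FPKM values. For Jund that length (2877 bases) exceeds the span of its GENCODE gene given above. Fosb was above Fosl2 in all 8 libraries, although the ranges of the pair overlapped in ketogenic libraries (7.97 to 9.01 and 7.36 to 8.16 FPKM).

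In FPKM, Fos was below Jun in all 4 ketogenic libraries, with a ratio of Fos to Jun FPKM of 0.82 ± 0.09, and above Jun in all 4 control libraries, with a ratio of 1.41 ± 0.16 (SD, n = 4 each). The ratio ran from 0.687 to 0.893 in ketogenic and from 1.29 to 1.64 in control libraries. The size of this ratio and its side of 1 depend on the fixed lengths behind the FPKM values (2109 bases for Fos and 3187 for Jun), while the separation of the diets does not. In CPM, which takes no account of length, Fos was below Jun in all 4 ketogenic libraries and also in control replicates 1, 3 and 4. The ratio of Fos to Fosb was 1.61 ± 0.13 in ketogenic and 2.14 ± 0.33 in control libraries, and that of Jun to Jund 0.33 ± 0.02 in ketogenic and 0.43 ± 0.04 in control libraries, again without overlap. The ratio of Junb to Jun overlapped, at 2.06 ± 0.27 in ketogenic and 2.13 ± 0.33 in control libraries. These ratios are given as descriptions without a test.

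Summed over its 4 genes, the Fos family had 30.5 ± 2.34 FPKM in ketogenic and 51.8 ± 4.26 FPKM in control libraries, and the ranges did not overlap (27.5 to 33.2 and 47.0 to 57.2). The Jun family had 103 ± 5.11 FPKM in ketogenic and 111 ± 6.34 FPKM in control libraries, with overlap. The Fos family was therefore 22.9% ± 1.04 of the summed FPKM of both families in ketogenic and 31.7% ± 1.58 in control libraries. Jund, the largest part, was 38.2% ± 1.48 of that sum in ketogenic and 29.3% ± 1.63 in control libraries, and Fos was 10.5% ± 0.73 in ketogenic and 17.6% ± 1.25 in control libraries. Shares of Jun and Junb overlapped between the diets. All these sums and shares depend on the fixed lengths behind the FPKM values, and that of Jund (2877 bases) exceeds its GENCODE span.

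**Figure D4:**
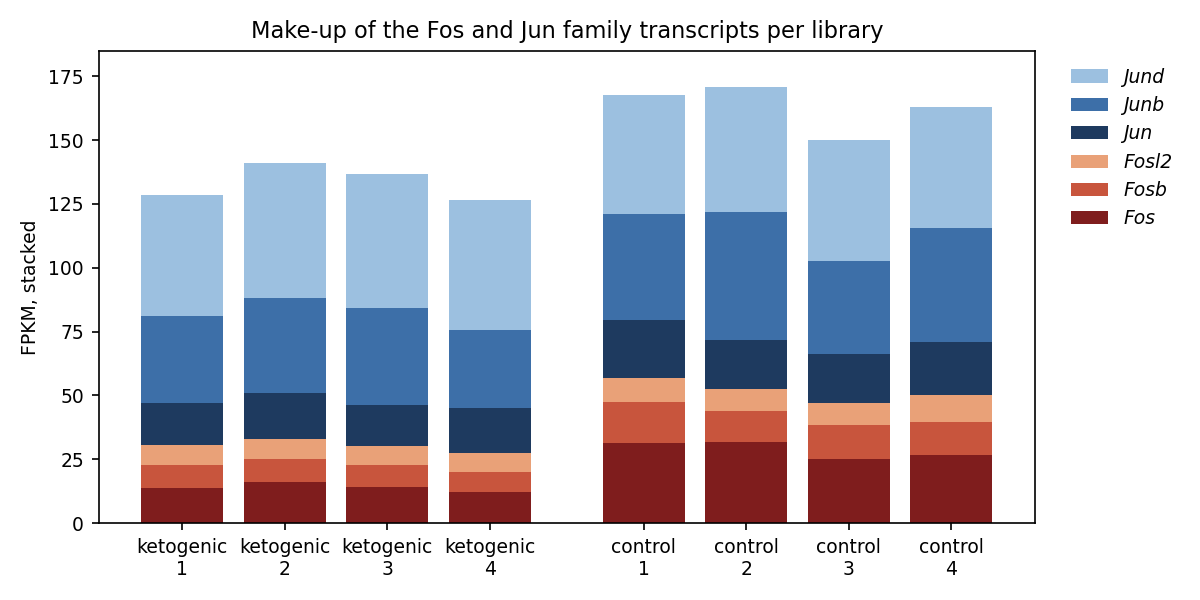
FPKM of 6 Fos and Jun family genes stacked per library, ketogenic libraries left and control libraries right; Fosl1, under 0.2 FPKM in each library, is not drawn. The Fos family segments (reds) are shorter in each ketogenic library, and the Jund segment (light blue) is of similar height throughout.

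Within each diet the members did not share one highest or lowest library. Ketogenic replicate 4 was lowest for Fos, Fosb, Fosl2 and Junb, but ketogenic replicate 3 was lowest for Jun and ketogenic replicate 1 for Jund. Control replicate 3 was lowest for Fos, Jun and Junb, and control replicate 2 for Fosb and Fosl2. Control replicate 1 was highest for Fosb and Jun, control replicate 2 for Fos, Junb and Jund, and control replicate 4 for Fosl2.

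The genes most like Fos over the 8 libraries were sought among 13280 genes with a mean CPM of at least 1. Predicted genes (symbols of Gm plus a number, or Rik) were left out of these. Likeness was the root mean square difference between log2 CPM profiles each centred on its mean. The profile of Fos itself had a root mean square of 0.542. The nearest were Egr1 (difference 0.147), Egr2 (0.185), Nr4a3 (0.189), Nr4a1 (0.191) and Rsrp1 (0.200), of which the first 4 are known activity-induced transcription factor genes. Because the profile of Fos is mainly its difference between the diets, genes chosen for likeness to it are lower in ketogenic brains by that choice; their log2 changes ran from -1.09 for Egr2 to -0.67 for Rsrp1. Those nearest to Fosb were Srfbp1, Scel and Xkr7 (0.0909 to 0.109). Nearest to Jun were Nek4, Tfg and Gng4 (0.0368 to 0.0505), to Fosl2 Tra2a, Uprt and Igsf9b (0.0524 to 0.0663), to Junb Itpkc, Npat and Skida1 (0.0731 to 0.0786), and to Jund Edf1, Laptm4b and Pcmt1 (0.0261 to 0.0330).

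Other immediate early genes, outside the Fos and Jun families, were lower in 13 of 19 tested members and higher in 0, beside 3.22% lower and 3.30% higher over all tested genes, with a median log2 change of -0.52. Nr4a1 and Nr4a3, orphan nuclear receptor genes, changed by -0.81 and -0.76 in log2, the zinc-finger gene Egr1 by -0.83 and the MAP kinase phosphatase gene Dusp1 by -0.60. Without control replicate 2 the number lower was 9, and with limma on log2(FPKM + 1) over all 17983 genes it was 5. In these settings 1.36% and 0.356% of all tested genes passed in either direction, against 6.52% as reported.

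Genes that could act upstream of AP-1 came next. Of 17 tested transcription factors and coactivators at these promoters, 1 was lower (3.22% over all tested genes) and 0 higher. The lower gene was Creb1, which binds the cAMP response element. Creb1 averaged 49.8 ± 4.34 CPM in ketogenic and 62.8 ± 1.36 CPM in control libraries (SD, n = 4 each; CPM are counts scaled by edgeR's effective library sizes). In log2 this was -0.33 ± 0.07 (SE, edgeR adjusted p = 0.0137). This call held with each single library left out, but not once the trend on GC and length was taken out (-0.20 in log2, adjusted p = 0.121). Srf, the serum response factor, was at -0.14 ± 0.08 in log2 and did not pass (adjusted p = 0.273).

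Of 29 upstream kinase genes, 1 was lower and 3 higher, beside 3.22% lower and 3.30% higher over all tested genes, with a median log2 change of -0.02. The lower gene was Mapk8 (JNK1), at 120 ± 8.94 CPM in ketogenic and 142 ± 9.41 CPM in control libraries (log2 change -0.25 ± 0.06, edgeR adjusted p = 0.0343). Its paralogs Mapk9 (JNK2) and Mapk10 (JNK3) were at -0.17 ± 0.05 and -0.06 ± 0.06 in log2 and did not pass (adjusted p = 0.0628 and 0.590). The Mapk8 call was lost without ketogenic replicate 2 or 4 (0.0948 and 0.0749), without control replicate 1, 2 or 3 (0.105, 0.0740 and 0.0868), and once the trend on GC and length was taken out (-0.12 in log2, 0.324). Higher were Camkk1, a calcium-dependent kinase of CaM kinases, at 143 ± 16.7 CPM in ketogenic and 98.2 ± 13.7 CPM in control libraries (log2 change 0.54 ± 0.09, edgeR adjusted p = 0.00735), the RSK gene Rps6ka2 (0.29 ± 0.06) and Map2k2 of the ERK cascade (0.31 ± 0.07). Camkk1 passed with each library left out. The Rps6ka2 call was lost without ketogenic replicate 2 or control replicate 1 (0.0602 and 0.0592), and the Map2k2 call without ketogenic replicate 2 (0.0641) or control replicate 1, 2 or 3 (0.0736, 0.0749 and 0.0536). Map2k2 also missed the threshold without the GC and length trend, at 0.24 in log2 (0.0919). Without control replicate 4 the number of kinase genes higher was 6. In that setting 12.7% of all tested genes passed in either direction, against 6.52% with all libraries.

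Among 11 tested basic leucine zipper genes whose products can pair with Fos or Jun proteins, 1 was lower and 1 higher, where 3.22% and 3.30% of all tested genes were. Atf2, a partner of Jun, changed by -0.20 ± 0.05 (SE, edgeR adjusted p = 0.0370) and Mafg, a small Maf protein gene, by 0.26 ± 0.07 (0.0349). Once the trend on GC and length was taken out neither passed, with Atf2 at -0.08 (0.475) and Mafg, at 0.23 (0.0871), nearly as large as before. The Atf2 call held with single libraries left out only without ketogenic replicate 3 or control replicate 4, and the Mafg call only without control replicate 4, with adjusted p of up to 0.109 and 0.108 otherwise. Of 9 genes for turnover of Fos and Jun products, 1 was lower (3.22% over all tested genes), Zfp36l1, which binds AU-rich elements of short-lived messenger RNAs, at -0.40 in log2 (adjusted p = 0.0179). That call needed control replicates 1 and 2 (0.0667 and 0.0612 without them).

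Of 21 tested genes on a list of AP-1 targets, 0 were lower and 2 higher, where 3.22% and 3.30% of all tested genes were. Their median log2 change was 0.16. Whether each is regulated through an AP-1 site in brain was not tested. Pdyn, the dynorphin precursor gene, averaged 54.5 ± 1.58 CPM in ketogenic and 45.7 ± 2.86 CPM in control libraries (log2 change 0.25 ± 0.06, edgeR adjusted p = 0.0304). Vgf, a neuropeptide precursor gene, had a log2 change of 0.23 ± 0.06 (adjusted p = 0.0407). Once the trend on GC and length was taken out neither passed, with Pdyn, at 0.23 (0.0749), nearly as large as before and Vgf at 0.15 (0.239). Each was also lost when any of ketogenic replicates 2 to 4 or control replicates 1 to 3 was left out, with adjusted p of up to 0.0938 for Pdyn and 0.122 for Vgf. Without control replicate 4 there were 4 higher, where 12.7% of all tested genes passed in either direction, against 6.52% with all libraries. Penk, the enkephalin precursor gene, was at -0.03 in log2 (adjusted p = 0.853).

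Markers of brain cell types were present in all libraries, and some moved with the diet. Neuron markers overlapped, with a mean log2 CPM over 12 genes of 9.40 to 9.44 in ketogenic and 9.43 to 9.47 in control libraries. Of 8 astrocyte markers 4 were lower (Aqp4, Gja1, Gfap and Aldh1l1) and 0 higher, beside 3.22% lower and 3.30% higher over all tested genes. The mean log2 CPM of the 8 astrocyte markers was 7.45 to 7.54 in ketogenic and 7.60 to 7.78 in control libraries. The summed CPM of the same markers overlapped, at 3665 to 4228 in ketogenic and 3873 to 4654 in control libraries. Of 7 blood markers 4 were higher (Hba-a1, Hbb-bs, Hbb-bt and Alas2), beside 3.30% over all tested genes. The summed level of the 7 blood markers was 70.5 to 135 CPM in ketogenic and 17.0 to 54.0 CPM in control libraries. Their mean log2 CPM overlapped, at 1.61 to 3.47 in ketogenic and 0.21 to 1.64 in control libraries. The mean log2 levels of the oligodendrocyte, microglia, endothelial, mural, choroid plexus and meningeal lists overlapped between the diets. In the microglia and endothelial lists 1 of 8 markers each was higher (3.30% over all tested genes). In the mural list 1 of 8 markers was lower (3.22% over all tested genes). No marker on any list was at 0 in any library. Of 11 heat shock genes 1 was lower (3.22% over all tested genes), Bag3, at 12.4 ± 1.04 CPM in ketogenic and 17.1 ± 1.90 CPM in control libraries, a call lost without control replicate 1 (edgeR adjusted p = 0.0728). The part of these shifts in the changes of the Fos and Jun family genes was not tested.

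**Figure D5:**
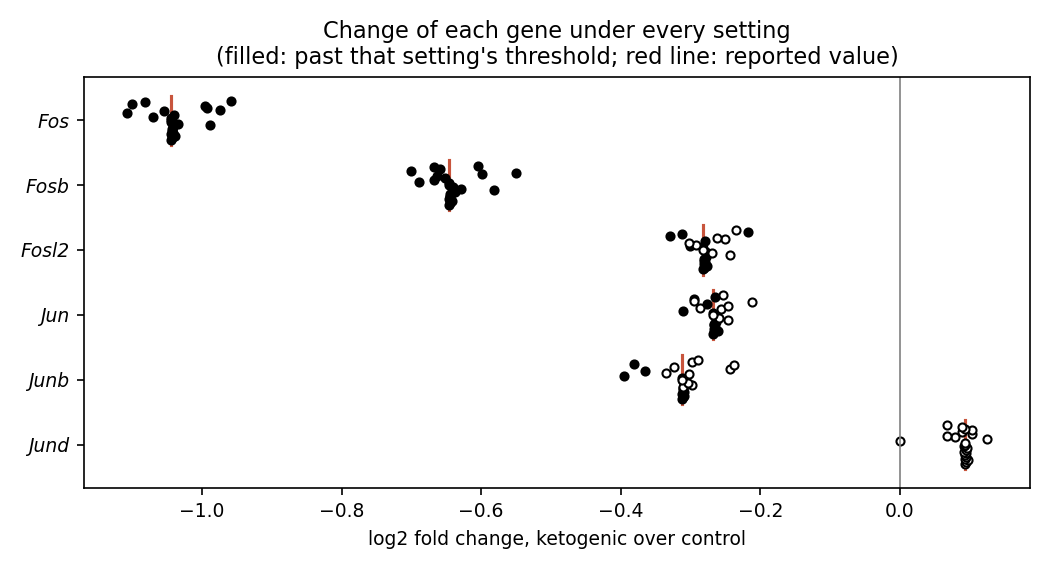
Log2 fold change of ketogenic over control for each of the 6 tested genes as reported (red line) and under 22 alternative settings, one dot each, filled where that setting's threshold was passed. All dots of Fos and Fosb are filled, those of Fosl2, Jun and Junb are mixed and below 0, and those of Jund are open.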

How the data were processed

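Deposited by the authors were raw counts per gene symbol and FPKM values for 8 brain libraries. The submitters' processing notes name GRCm38 and mm10 as builds. Aligner, counting program and use of strand: not given in the sources used here. These deposited counts summed to between 34450860 and 40233361 per library. The deposited FPKM values equal counts over a fixed gene length and the column's total.

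Ketogenic was compared with control by edgeR 4.0.16 on the counts (TMM, filterByExpr, the quasi-likelihood F test and diet alone in the design), with R 4.3.3, and 3088 of 17983 symbols were left out by the filter. The SE is the size of the log2 change divided by the square root of F. Alternatives were other scalings and filters, DESeq2 1.42.0, limma 3.58.1 (on voom values, log2(FPKM + 1) or log2(FPKM + 0.1)), other thresholds, the replicate number as a block, removal of a smooth GC and length trend (loess, span 0.3, GC known for 99.3% of tested genes), and left-out libraries. Simulated counts were used to test the fit.

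The members and the lists were chosen with earlier results of these data known. Named genes were all members, the 4 with the smallest p among called genes of each list, Srf, Creb1 and Mapk8 to Mapk10, and the 5 genes most like Fos or 3 most like another member; Penk and Aldh1l1, Aqp4, Gja1, Gfap and the blood markers were named after their values were seen. Same-numbered libraries deviated together with correlations of 0.02 to 0.08, so the numbers were not taken as pairs. The motif TGACATCA was added after the other motifs were fixed.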

Additional observations from a re-analysis of the deposited data

How the results depend on the processing

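Over 22 alternatives Fos and Fosb kept their calls, with log2 changes from -1.11 to -0.96 and from -0.70 to -0.55. Fosl2, Jun and Junb stayed lower, but 8, 9 and 11 alternatives lost the call, where the highest adjusted p was 0.199, 0.147 and 0.152. The change of Jund was -0.000307 and that of Mapk10 0.0084 once the trend on GC and length was taken out, against 0.09 and -0.06 as reported; the cause was not tested. The members past the threshold numbered 5 as reported and 2 with limma on log2(FPKM + 1) or log2(FPKM + 0.1), at an adjusted p under 0.01, or without ketogenic replicates 3 and 4 together. Leaving out 1 library gave 2 to 5 members. Genes past the threshold numbered 971 as reported. They numbered 1748 by DESeq2 and 64 and 88 by limma on log2(FPKM + 1) and log2(FPKM + 0.1), where test and filter differ at once (17983 genes tested, against 14895; edgeR without the filter gave 1046). They numbered 79 at an adjusted p under 0.01 and 2009 under 0.1. They numbered 308 after removal of the GC and length trend, 279 of them shared with the 971, and 90 without ketogenic replicates 3 and 4 together. Leaving out 1 library gave from 146 (without control replicate 1) to 1900 (without control replicate 4). With the replicate block, 1528 genes and 5 members passed. Correlations of same-numbered libraries were 0.02 to 0.08, and not every library was closest to its own number. The numbers were therefore not taken as pairs, and a batch or pairing by number was not tested further. Fosl1, at 2 to 10 reads per library, is limited by depth.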
